A study of Homo sapiens with 6 samples.

Results

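The 10 genes described here are those of the cadherin switch and its regulators: the transcription factor genes SNAI2, ZEB1, ZEB2 and TWIST1, the cadherin genes CDH1 and CDH2, the intermediate filament gene VIM and the matrix genes FN1, TNC and SPARC. They were picked by gene name from a table of 36887 genes, and all 10 had enough counts to be tested, among 21036 tested genes. These genes and the gene lists below were chosen with earlier results of these data known. Their shares beside those of all tested genes are therefore a description and no independent evidence. The RNA came from 5637 cells, an established line of human bladder carcinoma, labelled wild type in all samples. The groups are siYKT6, 3 samples transfected with siRNA against YKT6, a SNARE protein of vesicle fusion, and siNC, 3 samples transfected with negative control siRNA, all collected 48 h after transfection and carrying 1 shared batch label. Total counts per sample ran between 57546297 and 64429709 in siYKT6 and between 45205238 and 64982015 in siNC. No source used here says whether the 3 samples of a group came from separate cultures or whether 1 siRNA or several were used in siYKT6, so p values cover the spread among these 6 samples, which may be technical. The question was how the RNA of these genes differs in cells with less YKT6.

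In epithelial-mesenchymal transition (EMT), epithelial cells loosen their junctions and gain the ability to migrate. SNAIL, SLUG, ZEB and TWIST proteins bind E-box sequences in the promoter of CDH1 and of other epithelial genes and repress them, and the cells often exchange E-cadherin for N-cadherin while they build a vimentin network and secrete fibronectin and tenascin C. Carcinoma cells frequently stop between the epithelial and the mesenchymal state, and bladder carcinoma lines that carry markers of both are well known.

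YKT6 itself had 17.7, 19.4 and 17.3 CPM (counts normalized to library size, after TMM scaling) in siYKT6, against 64.5, 65.3 and 68.2 CPM in siNC. Its log2 fold change of siYKT6 over siNC was -1.86 (standard error, SE, 0.0477, adjusted p = 5.3e-17, edgeR's quasi-likelihood test with Benjamini-Hochberg adjustment over all tested genes, as for every adjusted p here unless named otherwise). The labels were checked in this way, and no siYKT6 sample overlapped a siNC sample. Summed over 10 genes expressed in urothelial carcinoma, the level lay between 2779 and 2956 CPM in siYKT6 and between 4599 and 4695 CPM in siNC, and the part of this difference in the results below was not tested. Of these urothelial genes 6 were lower and 1 was higher, beside 16.3% and 14.6% of all tested genes. KRT17 had 524 CPM in siYKT6 and 1451 CPM in siNC, and KRT5 had 387 and 853 CPM. The gene that was higher was EPCAM, with 168 CPM in siYKT6 and 149 CPM in siNC. All samples were of 1 cell line, and in bulk RNA fewer cells that express a gene and less RNA per cell cannot be told apart. The marker genes of other cell types summed to far less in every sample, with 44.1 to 47.1 CPM in siYKT6 and 39.7 to 41.2 CPM in siNC over 10 fibroblast genes, 1.70 to 2.04 CPM in siYKT6 and 1.46 to 1.77 CPM in siNC over 8 endothelial genes, and 5.53 to 6.53 CPM in siYKT6 and 6.21 to 7.05 CPM in siNC over 8 leukocyte genes. Of these, 1 fibroblast, 3 endothelial and 4 leukocyte genes averaged under 0.1 CPM, and none was at 0 in all samples.

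Of the 10 genes, 2 were higher in siYKT6, VIM and FN1, and 5 were lower, CDH1, SNAI2, ZEB2, TWIST1 and TNC, at an adjusted p under 0.05. CDH2, ZEB1 and SPARC did not pass the test, and FN1 lost its call when certain single samples were left out, as given below. Among all tested genes 14.6% were higher and 16.3% were lower. These include 7761 genes with no annotated 3′ UTR matched, of which 8.58% were higher and 8.03% were lower. The shares of all tested genes, here and below, were not matched to the level or type of the genes compared. The median log2 fold change of the 10 genes was -0.35, beside 0.0022 for all tested genes. In 8 of the 10 genes the CPM of the groups did not overlap, as in 41.8% of all tested genes, and the exceptions were CDH2 and ZEB1. The changes were small beside the fall of YKT6. VIM, the largest of those called, differed 1.60-fold, and its log2 fold change stood at the percentile 97.6 of all tested genes, while the 5 that fell lay between the percentiles 10.9 and 20.9.

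**Figure D1:**
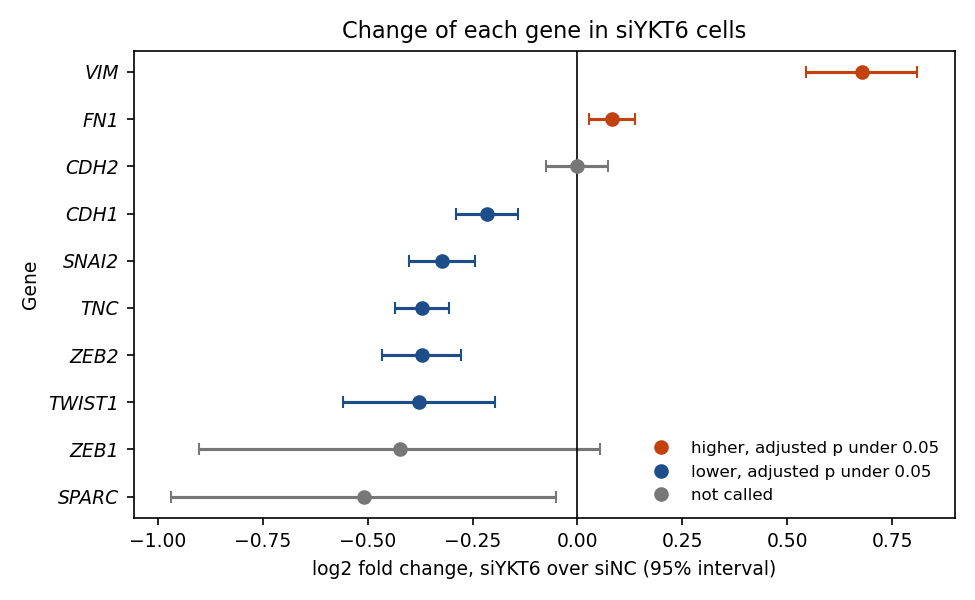
Log2 fold change of siYKT6 over siNC for each of the 10 genes, with its 95% interval, in order of size, where the vertical line marks no difference. VIM stands apart at 0.68, CDH2 lies on the line, and 5 genes called lower lie between -0.38 and -0.22.

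To compare the genes with one another, CPM were divided by the exon length in the table (RPKM, here CPM per kilobase of exon). On this scale the genes spanned a wide range. FN1 was the highest, with 170.0 ± 2.68 RPKM in siYKT6 and 160.5 ± 1.08 RPKM in siNC (SD, n = 3 each, here and below), followed by TNC with 45.8 ± 1.04 RPKM in siYKT6 and 59.2 ± 1.16 RPKM in siNC. CDH2 and SNAI2 did not differ beyond their spread in siYKT6, at 22.9 ± 0.811 and 22.7 ± 0.187 RPKM, whereas in siNC SNAI2 (28.3 ± 0.660 RPKM) stood above CDH2 (22.9 ± 0.111 RPKM). CDH1 followed at 15.6 ± 0.438 RPKM in siYKT6 and 18.1 ± 0.259 RPKM in siNC. VIM and TWIST1 exchanged places between the groups: VIM had 3.10 ± 0.0717 RPKM in siYKT6 and 1.94 ± 0.116 RPKM in siNC, and TWIST1 had 2.51 ± 0.113 RPKM in siYKT6 and 3.28 ± 0.157 RPKM in siNC. ZEB2 was at 0.983 ± 0.0128 RPKM in siYKT6 and 1.27 ± 0.00350 RPKM in siNC. SPARC and ZEB1 were the lowest in both groups and did not differ from each other beyond their spread, SPARC at 0.151 ± 0.0187 RPKM in siYKT6 and 0.214 ± 0.0188 RPKM in siNC, and ZEB1 at 0.127 ± 0.0395 RPKM in siYKT6 and 0.170 ± 0.0459 RPKM in siNC. On this scale the cells held RNA of both cadherins, with CDH2 above CDH1, and much fibronectin and little vimentin RNA, in both groups. The order of the genes rests on the exon lengths used. Counts of VIM and CDH1 may also include reads of genes on the opposite strand, described below.

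**Figure D2:**
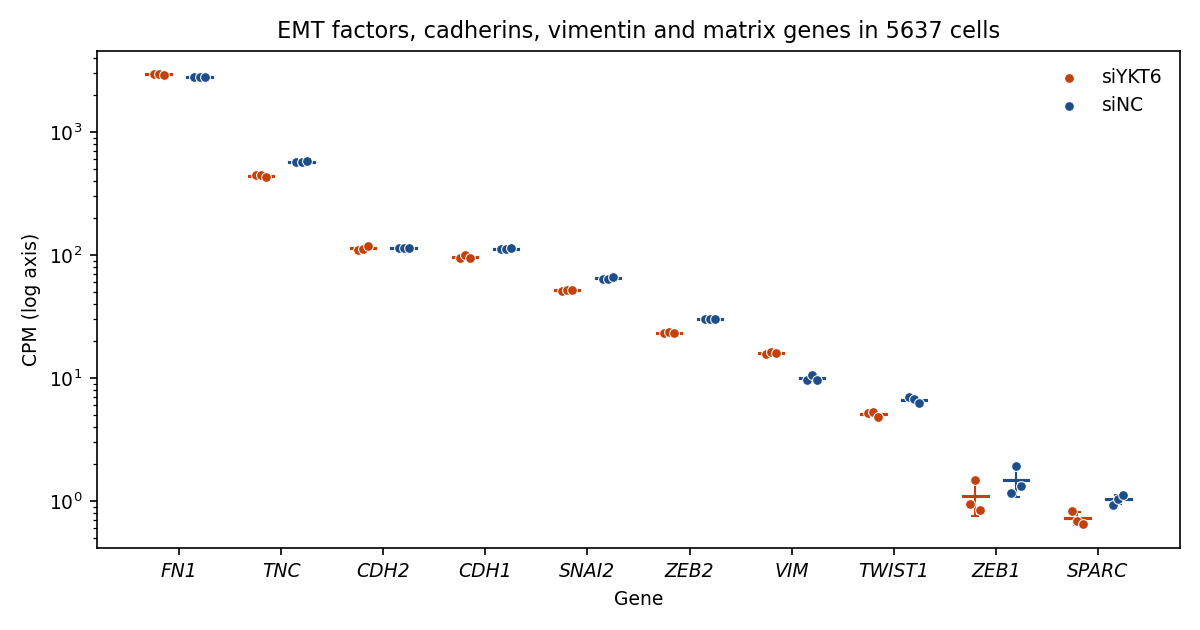
CPM on a log axis of the 10 genes in each sample, in order of level, with siYKT6 left of siNC, and with a line at the mean and bars of 1 SD. FN1 lies near 2943 CPM in siYKT6 and 2780 CPM in siNC, SPARC and ZEB1 lie near 1 CPM, and the groups overlap only in CDH2 and ZEB1.

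The promoter windows of RefSeq (build GRCh38.p14, 250 bases before to 50 bases after a start site) give the sequences from which these RNAs start. They were matched by symbol for 7 of the 10 genes, with 14 windows in all. CDH1, SNAI2 and TWIST1 had no window here, so their promoters were not searched. Shown are VIM and FN1, which were higher in siYKT6, TNC, which was lower, and a window of ZEB1 that holds the E2-box, the 6 letters CACCTG or CAGGTG that SLUG and ZEB proteins bind. The VIM window lies at chr10:17227991-17228290 on the plus strand, that of FN1 at chr2:215436019-215436318 on the minus strand, that of TNC at chr9:115118108-115118407 on the minus strand and that of ZEB1 at chr10:31318966-31319265 on the plus strand. Capitals mark the E2-box, the cAMP response element TGACGTCA and the TATA core TATAA or its reverse complement TTATA, searched on both strands, none of which overlaps another here.
VIM: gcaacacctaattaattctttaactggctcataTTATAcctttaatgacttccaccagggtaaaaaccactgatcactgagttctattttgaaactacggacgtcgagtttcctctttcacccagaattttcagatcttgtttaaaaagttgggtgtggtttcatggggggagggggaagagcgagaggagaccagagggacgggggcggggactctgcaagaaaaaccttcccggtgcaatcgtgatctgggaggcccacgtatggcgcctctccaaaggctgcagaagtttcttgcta
FN1: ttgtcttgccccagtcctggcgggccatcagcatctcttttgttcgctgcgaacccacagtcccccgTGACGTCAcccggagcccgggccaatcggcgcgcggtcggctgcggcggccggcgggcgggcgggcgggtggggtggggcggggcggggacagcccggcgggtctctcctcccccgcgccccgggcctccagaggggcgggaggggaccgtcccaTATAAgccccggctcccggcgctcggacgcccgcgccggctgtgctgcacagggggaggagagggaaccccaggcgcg
TNC: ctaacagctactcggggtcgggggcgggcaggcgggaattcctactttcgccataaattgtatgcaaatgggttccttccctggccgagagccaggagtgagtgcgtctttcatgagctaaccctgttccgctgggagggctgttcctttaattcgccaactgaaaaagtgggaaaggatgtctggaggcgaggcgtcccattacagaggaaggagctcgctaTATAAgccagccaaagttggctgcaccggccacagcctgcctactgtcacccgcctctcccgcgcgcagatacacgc
ZEB1: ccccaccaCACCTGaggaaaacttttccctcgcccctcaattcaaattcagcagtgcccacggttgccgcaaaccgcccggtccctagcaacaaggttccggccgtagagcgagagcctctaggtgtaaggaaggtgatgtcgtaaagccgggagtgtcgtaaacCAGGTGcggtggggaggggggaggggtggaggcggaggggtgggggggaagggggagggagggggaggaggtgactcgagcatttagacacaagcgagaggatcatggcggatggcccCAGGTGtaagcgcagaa
The E2-box stood in 2 of the 14 windows, both of ZEB1, of which the one shown holds 3, and in 20.6% of all 35116 RefSeq windows of the same length. The cAMP response element was in 1 window, that of FN1, and in 1.85% of all. The TATA core was in 7 of the 14 windows and in 20.4% of all, and the TATAA of FN1 and of TNC lies before the start site. The response element and the TATA core were chosen for the search after the sequences had been read, and a match is a description of these letters.

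Of the 4 transcription factor genes, SNAI2, ZEB2 and TWIST1 were lower in siYKT6 and ZEB1 did not pass the test. SNAI2 encodes SLUG, a zinc-finger repressor of CDH1 (chr8:48917690-48921740 in GRCh38, minus strand). It had 51.2, 51.8 and 52.1 CPM in siYKT6, against 63.7, 63.8 and 66.4 CPM in siNC, with no overlap. Its log2 fold change was -0.32 (SE 0.0378, adjusted p = 8.8e-07).

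ZEB2, which encodes a zinc-finger homeobox repressor that binds paired E2-boxes (chr2:144384081-144524583, minus strand), had 23.2, 23.6 and 23.0 CPM in siYKT6, against 30.2, 30.1 and 30.2 CPM in siNC. The samples of each group lay within 1 CPM of one another, and the log2 fold change was -0.37 (SE 0.0448, adjusted p = 1.3e-06). ZEB2 has the longest exon sequence of the 10 genes in the table, 23707 bases, so that its CPM place it above VIM while its RPKM place it below. TWIST1, the gene of a basic helix-loop-helix factor (chr7:19020991-19117672, minus strand), was rarer, with 5.22, 5.26 and 4.85 CPM in siYKT6, against 6.95, 6.70 and 6.32 CPM in siNC. All siYKT6 samples were below all siNC samples, and the log2 fold change was -0.38 (SE 0.0868, adjusted p = 0.0019).

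ZEB1, the relative of ZEB2 that is most often tied to EMT in carcinoma (chr10:31318495-31529814, plus strand), was rare, at rank 15176 of the tested genes by mean CPM. It had 62, 94 and 49 counts in siYKT6 (0.952, 1.49 and 0.848 CPM), against 52, 96 and 86 counts in siNC (1.16, 1.92 and 1.34 CPM). The groups overlapped, and the second sample was the highest in both. The log2 fold change was -0.42 (SE 0.229, adjusted p = 0.18), with a 95% interval between -0.90 and 0.05. A fall as large as that of ZEB2 could thus not be told apart from no change in these samples. Without the second siYKT6 sample ZEB1 was called lower, at -0.71 (adjusted p = 0.035), and over all alternatives its adjusted p lay between 0.035 and 0.62.

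In a list of 22 EMT transcription factors, which includes these 4 genes, 16 were tested. Of these, 8 (50%) were lower and 1 (6.25%) was higher, beside 16.3% and 14.6% of all tested genes. The list had a median log2 fold change of -0.28. FOXQ1, the gene of a forkhead factor that represses CDH1 in carcinoma cells, had the largest fall, with 15.3 ± 0.335 CPM in siYKT6 and 24.98 ± 0.943 CPM in siNC (log2 fold change -0.71, adjusted p = 9.3e-10). The gene that was higher was TCF3, whose E proteins pair with TWIST1, with 89.8 ± 2.60 CPM in siYKT6 and 81.7 ± 2.53 CPM in siNC (0.14, adjusted p = 0.0084). SNAI1, the gene of SNAIL, had between 0 and 4 counts in every sample and was not tested.

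Proteins of the SNAIL, SLUG and ZEB type repress transcription together with corepressors. Of 19 corepressor genes tested, 10 (52.6%) were higher and 4 (21.1%) were lower, beside 14.6% and 16.3% of all tested genes. The median log2 fold change of the list was 0.11. LOXL2, whose lysyl oxidase stabilizes SNAIL, had 31.8 ± 0.347 CPM in siYKT6 and 21.1 ± 1.199 CPM in siNC (0.59, adjusted p = 5.8e-09). KDM1A, the histone demethylase that SNAIL recruits, had 615 ± 7.70 CPM in siYKT6 and 535 ± 9.46 CPM in siNC (0.20, adjusted p = 1.8e-05), and EZH2, the methyltransferase of the Polycomb complex, had a log2 fold change of 0.21 (adjusted p = 2.2e-05). AJUBA, a LIM protein that bridges SNAIL to other corepressors, was lower, with 70.8 ± 1.09 CPM in siYKT6 and 95.04 ± 1.73 CPM in siNC (-0.42, adjusted p = 6.8e-09), and CTBP2, which ZEB proteins bind, fell by 0.21 on the log2 scale.

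Among 18 tested genes of epithelial regulators that act against EMT, 3 (16.7%) were higher and 6 (33.3%) were lower. Of all tested genes 14.6% were higher and 16.3% lower, and the median log2 fold change of the 18 genes was -0.01. TP63, the factor of basal epithelial cells, had the largest fall, with 107 ± 3.62 CPM in siYKT6 and 207 ± 2.50 CPM in siNC (-0.95, adjusted p = 1.4e-14), and KLF5 had 277 ± 20.1 CPM in siYKT6 and 385 ± 1.38 CPM in siNC (-0.48, adjusted p = 8.1e-09). ELF3, an ETS factor of epithelia, was higher, with 35.7 ± 0.759 CPM in siYKT6 and 30.0 ± 1.25 CPM in siNC (0.25, adjusted p = 1.5e-04). MIR205HG, the host transcript of the miRNA miR-205 that targets ZEB1 and ZEB2, fell by 0.40 on the log2 scale.

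Of the cadherin pair, CDH1 was lower in siYKT6 and CDH2 did not pass the test, and the ratio of CDH2 to CDH1 was higher in siYKT6. CDH1 encodes E-cadherin, which joins epithelial cells at adherens junctions (chr16:68737225-68835548, plus strand). It had 94.9, 99.6 and 94.97 CPM in siYKT6, against 111, 111 and 114 CPM in siNC. All siYKT6 samples were below all siNC samples, and the log2 fold change was -0.22 (SE 0.0353, adjusted p = 6.2e-05), a level 0.861 times that of siNC.

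CDH2 encodes N-cadherin, the cadherin of mesenchymal and neural cells (chr18:27950966-28177446, minus strand). It had 109.7, 112.3 and 117.6 CPM in siYKT6, against 113.9, 112.9 and 113.0 CPM in siNC. The siYKT6 samples lay on both sides of the siNC samples, and the log2 fold change was -0.0013 (SE 0.0355, adjusted p = 0.98). Its 95% interval ran between -0.08 and 0.07, and the sign of the estimate changed with the scaling.

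The ratio of CDH2 to CDH1 per exon length was 1.44, 1.41 and 1.54 in siYKT6, against 1.28, 1.27 and 1.24 in siNC, so on this scale CDH2 exceeded CDH1 in every sample. The order rests on the exon lengths in the table, since without them the third siNC sample had 7261 counts of CDH2 and 7315 counts of CDH1, and the counts of CDH1 may include reads of RP11-354M1.2, a gene on the opposite strand described below. On the log2 scale the ratio averaged 0.55 ± 0.070 in siYKT6 and 0.34 ± 0.024 in siNC, a difference of 0.21 with no overlap. CDH3, which encodes the P-cadherin of basal epithelial cells, behaved like CDH1, with 55.6, 58.5 and 61.5 CPM in siYKT6, against 70.2, 67.1 and 69.3 CPM in siNC (log2 fold change -0.23, adjusted p = 1.4e-04). Of 11 tested cadherin genes in a list of 22, 3 were lower (CDH1, CDH3 and CDH13) and 1, CDH24, was higher. The list median was -0.13, with 27.3% lower and 9.09% higher, beside 16.3% and 14.6% of all tested genes. CDH13 encodes T-cadherin, which is anchored by a lipid, and had 10.7 ± 0.690 CPM in siYKT6 and 13.1 ± 0.562 CPM in siNC (-0.30, adjusted p = 0.0016). CDH24 had 11.5 ± 0.129 CPM in siYKT6 and 10.0 ± 0.601 CPM in siNC (0.20, adjusted p = 0.030), and it lost the call without the first or second siYKT6 sample or the third siNC sample, with adjusted p values between 0.069 and 0.17.

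**Figure D3:**
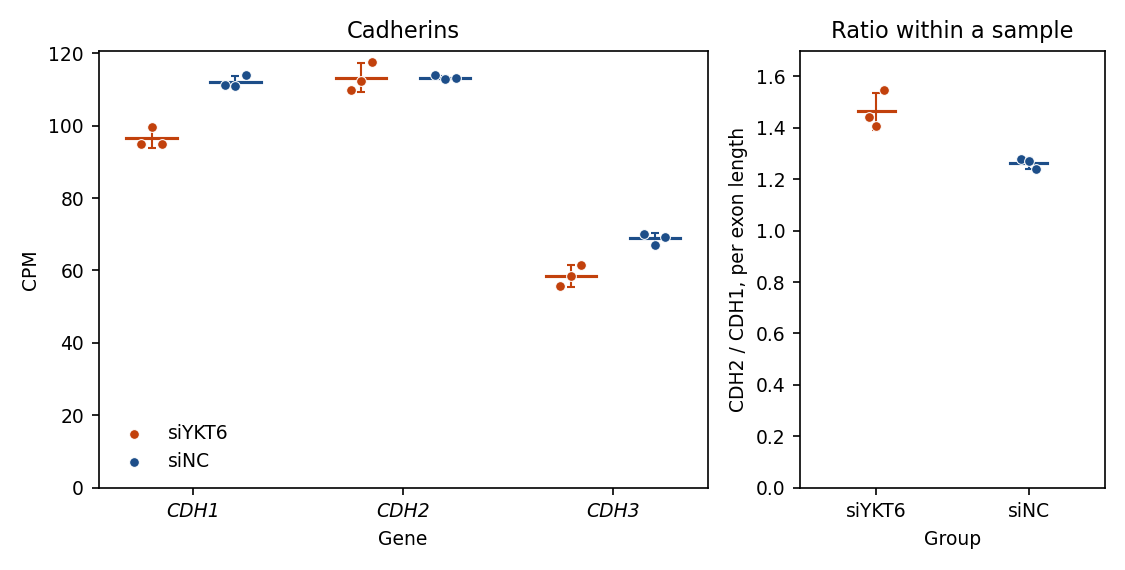
Left, CPM of CDH1, CDH2 and CDH3 in each sample, and right, the ratio of CDH2 to CDH1 per exon length within each sample, with siYKT6 left of siNC and with lines at the mean and bars of 1 SD. CDH1 and CDH3 are lower in all siYKT6 samples, the CDH2 groups overlap, and the ratio lies between 1.41 and 1.54 in siYKT6 and between 1.24 and 1.28 in siNC.

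Among 17 tested genes of the catenins and of the other linkers of adherens junctions, 4 were higher and 2 were lower. These shares, 23.5% and 11.8%, stand beside 14.6% and 16.3% of all tested genes. The median log2 fold change of the list was 0.02. CTNNB1, the gene of β-catenin, which binds the tail of both cadherins, had 140.7 ± 0.774 CPM in siYKT6 and 138.5 ± 0.859 CPM in siNC (0.02, adjusted p = 0.67), and was named after its values had been seen. NECTIN1, whose immunoglobulin-like protein starts new junctions, was lower, with 43.6 ± 2.08 CPM in siYKT6 and 75.2 ± 1.53 CPM in siNC (-0.79, adjusted p = 4.4e-12). NECTIN4, its relative that is abundant in urothelial carcinoma, was higher, with 18.4 ± 0.608 CPM in siYKT6 and 13.4 ± 1.13 CPM in siNC (0.46, adjusted p = 7.1e-06). CTNNA1, the gene of α-catenin, had a log2 fold change of 0.13, and VCL, the gene of vinculin, one of -0.20.

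Of 21 tested genes that control the turnover of E-cadherin and of its repressors, 8 (38.1%) were lower and 1 (4.76%) was higher. Among all tested genes, 16.3% were lower and 14.6% were higher, and the list had a median of -0.03. FBXL14 and FBXO45, whose F-box proteins mark SNAIL, SLUG, ZEB and TWIST proteins for degradation, had log2 fold changes of -0.56 (adjusted p = 8.3e-04) and -0.41 (adjusted p = 5.2e-06). CSNK1A1, the gene of casein kinase 1α, had 181 ± 3.48 CPM in siYKT6 and 218 ± 2.90 CPM in siNC (-0.27, adjusted p = 1.0e-06). ADAM10, the protease that sheds E-cadherin and N-cadherin from the cell surface, fell by 0.18 on the log2 scale. The gene that was higher was MDM2, at 0.21, whose ubiquitin ligase targets SNAIL proteins among others. RNA levels of these enzymes do not show how much of the proteins was degraded.

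VIM, the gene of vimentin, the main intermediate filament of mesenchymal cells, was the one of the 10 genes with a marked rise (chr10:17228259-17237593, plus strand). It had 15.6, 16.3 and 16.0 CPM in siYKT6, against 9.66, 10.7 and 9.65 CPM in siNC. The lowest siYKT6 sample was well above the highest siNC sample, and the log2 fold change was 0.68 (SE 0.0636, adjusted p = 3.7e-08). Even so, VIM stood only at rank 8613 of the tested genes by mean CPM, while CDH1 stood at rank 1899.

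Reads at the VIM locus are shared between annotated genes. VIM-AS1 (chr10:17214239-17229985, minus strand) covers the VIM promoter window shown above and shares 641 of its 1992 exon bases with VIM, and RP11-124N14.3 (chr10:17233325-17234833, minus strand) shares 619 of 706. VIM-AS1 had 197, 200 and 186 counts in siYKT6, against 92, 93 and 120 counts in siNC (log2 fold change 0.70, adjusted p = 1.9e-04). RP11-124N14.3 had 546, 571 and 592 counts in siYKT6, against 232, 311 and 332 counts in siNC (0.74, adjusted p = 2.4e-06).

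Relative to the siNC mean the siYKT6 samples stood at 1.56, 1.63 and 1.61 for VIM, at 1.57, 1.64 and 1.67 for VIM-AS1 and at 1.52, 1.63 and 1.86 for RP11-124N14.3, so all 3 genes rose by similar factors. CDH1 has such a neighbour too, RP11-354M1.2 (chr16:68814330-68823526, minus strand), which shares 347 of 562 exon bases with it. The siYKT6 samples stood at 0.847, 0.890 and 0.848 of the siNC mean for CDH1 and at 0.798, 0.875 and 0.826 for RP11-354M1.2, whose log2 fold change was -0.27 (adjusted p = 2.6e-04).

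The library kit keeps the strand, but no source used here gives the strand setting of the counting. Across the table, 138 of 241 genes that lie wholly inside the exons of a gene on the opposite strand with at least 1000 counts on average had at least 100 counts themselves, as had 62 of 166 that lie inside such a gene on the same strand. In the shared exon bases, reads of VIM and CDH1 and of these neighbours therefore cannot be told apart here. In all, VIM has 5158 exon bases and CDH1 has 6177. The part of the neighbours in the changes of VIM and CDH1 was not tested. The other neighbours gave no call: AC015933.2, opposite CDH2, had a log2 fold change of 0.03 (adjusted p = 0.90) and ZEB2-AS1 one of -0.11 (adjusted p = 0.89). ZEB1-AS1, AC003986.6 opposite TWIST1 and CTB-113P19.1 opposite SPARC had at most 16 counts in any sample and were not tested. HDAC9, which lies next to TWIST1 on the plus strand and encodes a histone deacetylase, was higher, with 80.4 ± 2.51 CPM in siYKT6 and 71.0 ± 1.47 CPM in siNC (0.18, adjusted p = 9.0e-04).

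**Figure D4:**
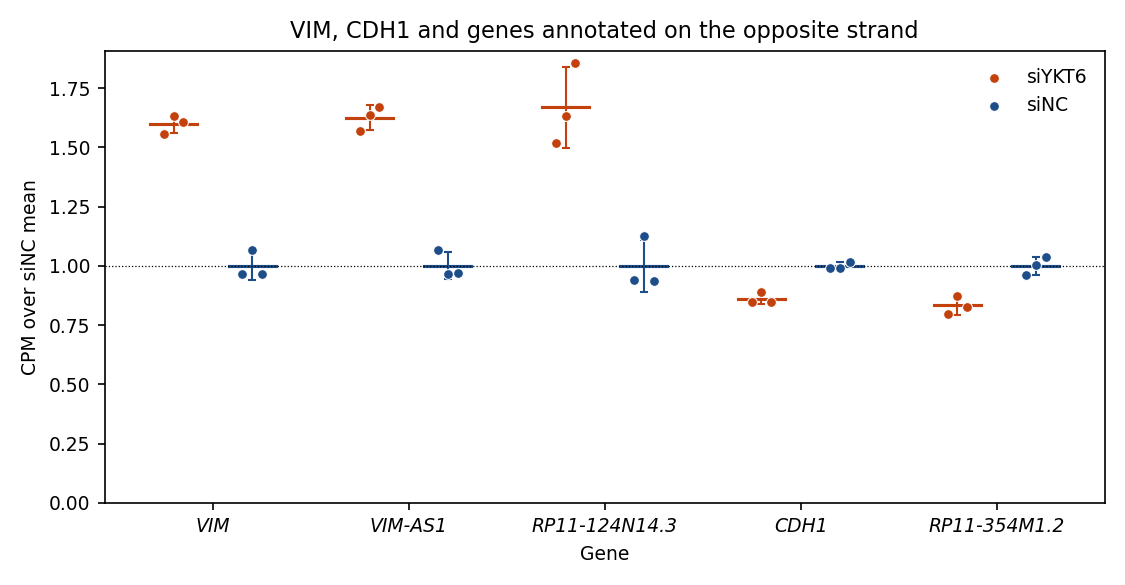
CPM of VIM, CDH1 and the genes annotated opposite to them, divided by the siNC mean of each gene, in each sample, with siYKT6 left of siNC, lines at the mean and bars of 1 SD. VIM, VIM-AS1 and RP11-124N14.3 lie between 1.52 and 1.86 in siYKT6, and CDH1 and RP11-354M1.2 between 0.798 and 0.890.

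Other intermediate filament genes and the genes of their partners differed in both directions. Of 15 tested, VIM included, 8 (53.3%) were higher and 5 (33.3%) were lower, beside 14.6% and 16.3% of all tested genes. The median log2 fold change of these 15 genes was 0.10. The genes of nuclear lamins were higher, with LMNB1 at 512 ± 9.46 CPM in siYKT6 and 374 ± 2.50 CPM in siNC (0.45, adjusted p = 2.3e-10) and LMNA at a log2 fold change of 0.24. NES, the gene of nestin, which assembles with vimentin, was lower, with 26.6 ± 0.571 CPM in siYKT6 and 33.0 ± 0.509 CPM in siNC (-0.31, adjusted p = 9.1e-06). The neurofilament genes NEFM and NEFL, at a few CPM, fell by 0.71 and 0.50 on the log2 scale, and PLEC, whose plectin links the filaments to junctions and to actin, by 0.13.

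Of the 3 matrix genes, FN1 was slightly higher, TNC was lower and SPARC did not pass the test. FN1 encodes fibronectin, the adhesive matrix protein that EMT cells secrete (chr2:215360440-215436172, minus strand), and stood at rank 20 of all tested genes by mean CPM. It had 2976, 2963 and 2890 CPM in siYKT6, against 2801, 2768 and 2770.0 CPM in siNC. The groups did not overlap, but the difference was slight, at a log2 fold change of 0.08 (SE 0.0266, adjusted p = 0.022). The call was lost without the first siYKT6 sample (adjusted p = 0.090), without the second (adjusted p = 0.090) and without the third siNC sample (adjusted p = 0.057), and the adjusted p lay between 0.0014 and 0.090 over all alternatives.

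TNC encodes tenascin C, a matrix protein of wound edges and tumor stroma that weakens cell adhesion to fibronectin (chr9:115019578-115118257, minus strand). It had 445, 449 and 430.2 CPM in siYKT6, against 564, 564.5 and 584 CPM in siNC. All siYKT6 samples were far below the siNC samples for a gene of this spread, and the log2 fold change was -0.37 (SE 0.0311, adjusted p = 6.8e-09), the smallest p of the 10 genes. TNC was at rank 264 of all tested genes.

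SPARC encodes osteonectin, a collagen-binding matrix protein (chr5:151661096-151687165, minus strand), and was near 1 CPM like ZEB1. It had 54, 44 and 38 counts in siYKT6 (0.829, 0.695 and 0.658 CPM), against 42, 52 and 72 counts in siNC (0.939, 1.04 and 1.12 CPM). The CPM of the groups did not overlap, but the adjusted p was 0.088 at a log2 fold change of -0.51 (SE 0.220, unadjusted p = 0.0314), with a 95% interval between -0.97 and -0.05. It passed the test under no alternative, where the adjusted p lay between 0.075 and 0.24.

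The 3′ UTR of TNC holds the 7-letter word CTCTACA, which earlier work on these same data had picked because genes that hold it were often lower, so its count below is no independent evidence. In the GENCODE canonical transcripts (GRCh38), the word stands once in TNC and once in ZEB1, and in no other of the 10 genes. It lies within the stretch chr9:115020222-115020250 on the minus strand in TNC and within chr10:31528341-31528369 on the plus strand in ZEB1. These short stretches are shown with the word in capitals. TNC was lower in siYKT6, and ZEB1 was not called.
TNC: tgagaacttgtCTCTACAgaaaaaaaaaa
ZEB1: tttcagaatttCTCTACAgaaacgaaagg
Of 1358 tested genes with the word, 519 (38.2%) were lower and 171 (12.6%) were higher, beside 2277 (19.1%) lower and 2229 (18.7%) higher of 11917 tested genes with a 3′ UTR without it. Of the other genes called lower, CDH1, SNAI2, ZEB2 and TWIST1 do not hold the word. The length of the 3′ UTRs was not taken into account in these counts, and the part of the word in the fall of TNC was not tested.

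Fibronectin, the tenascins and the SPARC family with related matrix proteins made up a list of 22 tested genes, with a median log2 fold change of -0.03. Of these, 3 (13.6%) were higher and 4 (18.2%) were lower, close to the 14.6% and 16.3% of all tested genes. THBS1, the gene of thrombospondin 1, was higher, with 342 ± 4.64 CPM in siYKT6 and 245 ± 1.497 CPM in siNC (0.48, adjusted p = 1.1e-10), and FBLN1, the gene of fibulin 1, had a log2 fold change of 0.18. SPOCK1, a proteoglycan gene related to SPARC, was lower, with 20.04 ± 0.656 CPM in siYKT6 and 28.6 ± 0.932 CPM in siNC (-0.52, adjusted p = 4.7e-08), and FBN2, the gene of fibrillin 2, had 49.5 ± 3.47 CPM in siYKT6 and 64.8 ± 1.61 CPM in siNC (-0.39, adjusted p = 9.9e-07). Of 23 tested genes of collagens and of the enzymes that modify and cross-link them, 5 (21.7%) were higher and 6 (26.1%) were lower. These shares stand beside the 14.6% and 16.3% of all tested genes, at a list median of -0.0026. COL17A1, the transmembrane collagen of hemidesmosomes, fell to 168 ± 2.33 CPM in siYKT6, against 272 ± 2.99 CPM in siNC (-0.70, adjusted p = 4.0e-13). The prolyl hydroxylase genes P4HA1 and P4HA2, which modify collagen chains, rose by 0.31 and 0.32 on the log2 scale.

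Receptors pass the contact with the matrix on to the cell. Of 15 tested genes of receptors of fibronectin and tenascin C, 10 (66.7%) were lower and 0 were higher, with a median log2 fold change of -0.30. Among all tested genes, 16.3% were lower and 14.6% were higher. On the same 6 samples, DESeq2, limma-voom and an unadjusted p under 0.05 in edgeR likewise gave 10 lower and 0 higher. The list was written with earlier results of these data known, so its counts are no independent evidence. ITGB6, whose integrin binds fibronectin and tenascin C and activates TGF-β, had 27.5 ± 0.299 CPM in siYKT6 and 50.5 ± 1.64 CPM in siNC (-0.87, adjusted p = 1.3e-12). ITGB1, the β subunit of the main fibronectin receptors, had 685 ± 16.1 CPM in siYKT6 and 908 ± 9.64 CPM in siNC (-0.41, adjusted p = 9.2e-10). EGFR, a growth factor receptor that binds repeats of tenascin C, had 276 ± 4.43 CPM in siYKT6 and 392 ± 7.41 CPM in siNC (-0.50, adjusted p = 6.3e-11), and PTPRZ1, a receptor phosphatase that binds tenascin C, had 24.0 ± 1.46 CPM in siYKT6 and 40.7 ± 1.61 CPM in siNC (-0.76, adjusted p = 1.5e-10). While RNA of the ligand fibronectin was slightly higher and that of tenascin C lower in siYKT6, RNA of most of their receptors was lower.

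**Figure D5:**
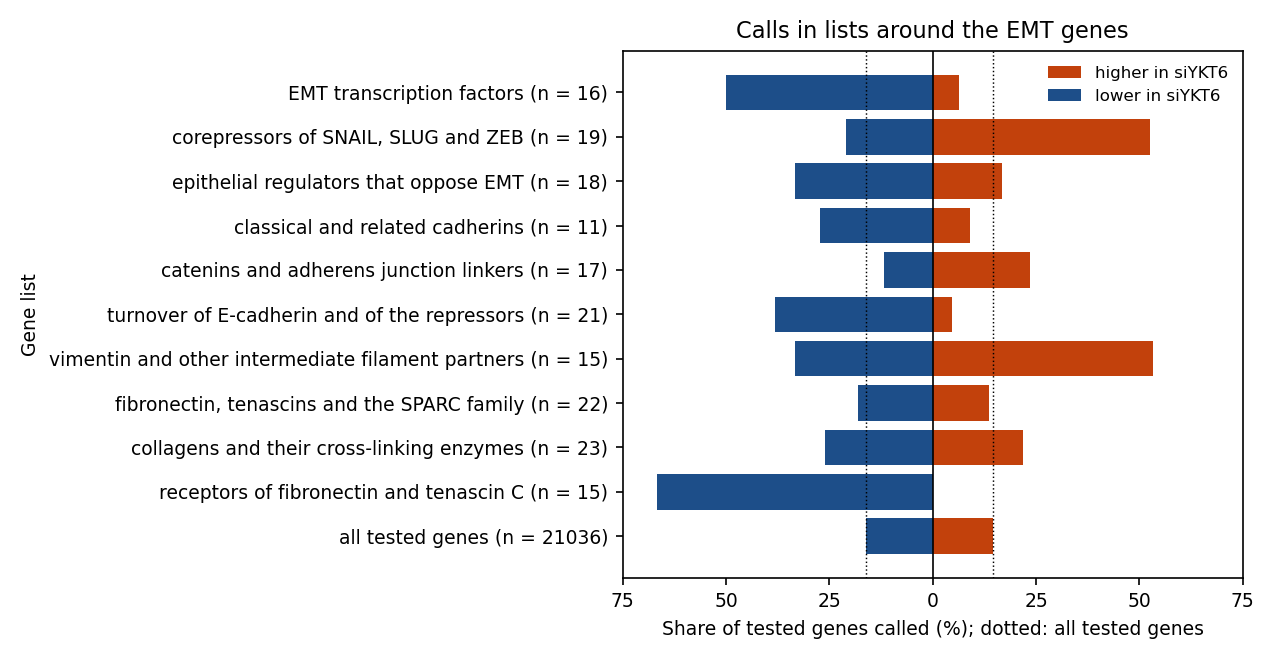
Share of the tested genes in 10 of the gene lists, and in all tested genes, that were called lower (left of 0) and higher (right of 0) in siYKT6, in percent, where the dotted lines mark the shares among all tested genes, 16.3% lower and 14.6% higher. Among the lists drawn, receptors of fibronectin and tenascin C lie furthest on the lower side, at 66.7%, and intermediate filament partners and corepressors furthest on the higher side, at 53.3% and 52.6%. The lists were written with earlier results of these data known.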

How the data were processed

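RNA was measured by RNA-seq in 6 samples of 5637 cells, 3 per group, grouped by their labels. The authors made stranded mRNA libraries, filtered reads with fastp 0.23.0, used GRCh38 and counted reads per gene with featureCounts of Subread 1.5.1, and they deposited raw counts beside the other gene columns, such as position and exon length. The sources used here do not give the aligner or the strand and pair settings. Even numbers made up between 68.8% and 70.0% of the counts between 1 and 20, so counts were also halved as an alternative.

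The members and lists were chosen with earlier results of these data known. The 10 genes and all others were fitted together with edgeR 4.0.16 in R 4.3.3 (filterByExpr at its minimum count of 10, TMM, quasi-likelihood test, Benjamini-Hochberg adjustment, threshold 0.05), which left out 15851 genes with few counts. The common biological coefficient of variation was 0.0418. Between libraries of a group the mean chi-square per gene was 3.62 to 6.01, against 33.6 to 40.0 between groups, so no library was a copy of another. Intervals are at 95%. Of the steps, only the fits of edgeR, DESeq2 and limma-voom were tried on simulated counts. Named are YKT6, the 10 genes, in each list up to 4 called genes per direction by smallest p, and tested antisense or neighbouring partners. Exceptions are said in the text, and a few items that the rule names are left out here. Alternatives were other scalings, filters, DESeq2 1.42.0, limma-voom 3.58.1, a replicate block and the omission of each sample in turn. Older symbols were matched through RefSeq synonyms, and neighbours with bedtools 2.31.1.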

Additional observations from a re-analysis of the deposited data

How the results depend on the processing

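The log2 fold changes of CDH1, SNAI2, ZEB2, TWIST1, TNC, VIM and YKT6 kept their sign and their call under every alternative run. Leaving out 1 sample at a time gave -0.24 to -0.20 for CDH1, -0.33 to -0.30 for SNAI2, -0.38 to -0.36 for ZEB2, -0.42 to -0.34 for TWIST1, -0.38 to -0.35 for TNC, 0.65 to 0.73 for VIM, 0.075 to 0.095 for FN1, -0.71 to -0.20 for ZEB1, -0.62 to -0.44 for SPARC and -0.029 to 0.022 for CDH2. Among the 10 genes it left 1 to 2 higher and 5 to 6 lower, and the log2 ratio of CDH2 to CDH1 differed by 0.17 to 0.24. CDH2, which was never called, had a positive sign with DESeq2's size factors (0.00034), upper quartile scaling (0.017), no filter (0.011), at least 1 CPM in every sample (6.9e-06) and DESeq2 (0.00029), and also without the first siYKT6 sample (0.022), the second (0.0057) or the first siNC sample (0.0045). ZEB1 and SPARC gave no value with at least 1 CPM in every sample. AC015933.2 turned negative without the third siYKT6 sample (-0.069), the first siNC sample (-0.025) or the third (-0.044), within a range of -0.069 to 0.17, and ZEB2-AS1 turned positive without the second siNC sample (0.10), within a range of -0.31 to 0.10; the cause was not tested.

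Samples with the same replicate number did not deviate together (correlations 0.0065, -0.0047 and 0.0092), so the numbers do not pair them. With the replicate number as a block, FN1 had 0.082 (adjusted p = 0.051) and was not called, which left 1 of the 10 genes higher, and 2958 of all genes were higher and 3312 lower. Over all genes, leaving out 1 sample gave 2503 to 2814 higher and 2916 to 3244 lower. More genes were lower than higher with TMM and filterByExpr, but upper quartile scaling gave 3475 higher and 3094 lower and no filter gave 3309 higher and 3181 lower. No alternative shifted the median of all genes by over 0.1. Of the other named genes, 19 values lost their call under some alternative, among them HDAC1, CDH24, FOXA1, RBM47, VWF and CD68. With halved counts, the adjusted p of ZEB1 was 0.17 and that of SPARC 0.075, and neither was called.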

Other observations

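Other markers used to place cells between the epithelial and the mesenchymal state differed in both directions. Of 20 tested genes, 3 were higher and 7 were lower in siYKT6, beside 14.6% higher and 16.3% lower among all tested genes, with a median log2 fold change of -0.08. PKP1, a plakophilin of desmosomes, had 4.36 ± 0.461 CPM in siYKT6 and 12.1 ± 0.486 CPM in siNC (SD, n = 3 each), a log2 fold change of -1.47 (adjusted p = 1.7e-11, edgeR). CD44, a hyaluronan receptor, had 173 ± 3.92 CPM in siYKT6 and 230.4 ± 2.24 CPM in siNC (-0.41, adjusted p = 2.3e-09, edgeR). AXL, a receptor tyrosine kinase tied to mesenchymal carcinoma cells, was higher, with 66.6 ± 0.687 CPM in siYKT6 and 45.1 ± 0.383 CPM in siNC (0.56, adjusted p = 1.9e-10, edgeR), as was the epithelial tight junction gene CLDN4, with 9.16 ± 0.367 CPM in siYKT6 and 6.43 ± 0.818 CPM in siNC (0.50, adjusted p = 1.2e-04, edgeR).

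Among the 10 urothelial carcinoma genes that served as a check of the cell type, 6 (60%) were lower and 1 (10%) was higher. Over all tested genes the shares were 16.3% lower and 14.6% higher, and the median of the 10 was -0.75. The basal keratin genes KRT17, KRT6A and KRT5 had the smallest p values, with log2 fold changes of -1.47, -1.40 and -1.14. Few genes of other cell types were called. Of 8 tested fibroblast genes, COL1A1 was higher (0.26) and 0 were lower, of 4 endothelial genes VWF was higher (1.01) and 0 were lower, and of 4 leukocyte genes CD68 was lower (-0.32) and 0 were higher in edgeR. At an unadjusted p under 0.05, 0 fibroblast and 0 endothelial genes were lower and 1 leukocyte gene was higher, and DESeq2 and limma-voom gave 0 in each of these. The adjusted p of VWF was 0.072 without the second siNC sample, and that of CD68 was 0.051 in DESeq2, which did not call it.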
